A study of Homo sapiens with 6 samples.

Results

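The genes described here are 40 named components of the protein-folding machinery of the endoplasmic reticulum (ER) and of the unfolded protein response, the signalling system that watches over it. They were taken by gene symbol from the deposited table of estimated read counts per gene. Of the 40, 39 were in that table of 19846 genes, and all 39 passed the filter on low counts together with 15314 genes in all. The remaining gene, DERL3, was not analysed here. The choice of members used no measured value as a cut-off, but earlier results of these data were known when it was made.

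The study sequenced messenger RNA from HepG2 cells, an established human hepatocellular carcinoma line that secretes many liver plasma proteins. In the 2D group (3 samples) the cells grew on 6-well plates in EMEM with 10% fetal bovine serum, and the medium was changed every 2 days. In the 3D group (3 samples) the cells grew in the extra-fiber space of an interwoven hollow fiber bioreactor, a cartridge of semi-permeable fibers through which medium was recirculated at 23.5 mL/min, with fresh medium fed at 2 mL/hour. The bioreactor medium combined EMEM with DMEM in equal parts, with the same share of serum, plus antibiotics and a glutamine supplement. Culture geometry, basal medium and feeding schedule therefore differed together between the groups, and their parts in any difference cannot be told apart. Whether the samples within each culture came from separate cultures is not stated, so the p-values measure only the spread between these samples, which may be technical.

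Each library held 14522918 to 17943513 estimated counts, except the first 3D replicate with 9530795. That library also stood apart from the other 3D libraries on the second principal component (14.1% of the variance; the first, with 65.2%, separated the cultures). All 9 hepatocyte and HepG2 markers examined were measured, with a summed level of 40144 to 44535 CPM (counts scaled to library size, with factors from the trimmed mean of M-values, TMM) in 2D and 31246 to 50120.4 in 3D. Single markers differed by the test described below. APOB was lower in 3D (mean 17756 CPM in 2D and 6631 in 3D). APOA1 (1232 and 3219 CPM) and TF (3290 and 5361 CPM) were higher, and the other markers of this list did not pass. No fibroblast marker of 5 was analysed here. The 3 endothelial markers measured summed to at most 5.49 CPM in any library, and CD14 was the 1 blood marker of 4 measured.

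Secretory and membrane proteins enter the ER through the Sec61 channel and fold there with the help of the HSP70-type chaperone BiP (HSPA5), the HSP90-type chaperone GRP94 (HSP90B1), the lectins calnexin and calreticulin, and protein disulfide isomerases. When unfolded proteins build up, sensors in the ER membrane respond: IRE1 (ERN1) splices the messenger of XBP1, ATF6 is cut in the Golgi to free a transcription factor, and PERK (EIF2AK3) slows translation and favours ATF4. The factors made by these arms raise transcription of chaperones and of ER-associated degradation (ERAD), which returns misfolded proteins to the cytosol for destruction. Hepatocytes, as professional secretors of plasma proteins, depend on this system continuously. Counts per gene do not separate spliced from unspliced XBP1 messenger or whole from cleaved ATF6 protein, so what follows is the abundance of each messenger.

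ATF6 and XBP1 act through short promoter elements, and these are shown first because they mark which members are candidates for these factors by sequence alone. The ER stress element (ERSE) was searched as CCAAT and CCACG with any 9 bases between them, and its variant ERSE-II as ATTGG and CCACG with any 1 base between them, on both strands, from 250 bases upstream to 50 bases downstream of each start in RefSeq's promoter table (GRCh38.p14). Of the 39 members, 36 had such a window. ERSE was found in 22 of 27305 promoters (0.0806%) and ERSE-II in 15 (0.0549%), with 7 and 3 members among them. The ERSE matches are given below with 10 flanking bases, read 5′ to 3′ along the gene's strand, with the match in capitals; where it lies on the opposite strand the capitals show the reverse complement, which starts with CGTGG. A match describes the letters and does not show binding.
XBP1 (chr22:28800593-28800631, minus strand): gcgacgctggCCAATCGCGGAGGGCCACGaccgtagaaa
HSPA5 (chr9:125241381-125241419, minus strand): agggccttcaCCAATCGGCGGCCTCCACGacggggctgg
HSP90B1, upstream match (chr12:103930206-103930244, plus strand): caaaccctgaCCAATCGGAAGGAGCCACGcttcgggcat
HSP90B1, downstream match (chr12:103930311-103930349, plus strand): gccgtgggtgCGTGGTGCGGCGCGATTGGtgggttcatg
CRELD2 (chr22:49918544-49918582, plus strand): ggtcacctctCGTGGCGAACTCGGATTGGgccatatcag
CALR (chr19:12938374-12938412, plus strand): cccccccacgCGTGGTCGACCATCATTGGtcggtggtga
CANX (chr5:179698768-179698806, plus strand): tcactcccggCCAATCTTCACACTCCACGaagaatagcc
SERP1 (chr3:150546700-150546738, minus strand): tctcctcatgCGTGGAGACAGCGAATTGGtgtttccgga

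The ERSE-II matches, written in the same way, fell in HYOU1, SDF2L1 and HERPUD1.
HYOU1, upstream match (chr11:119057370-119057400, minus strand): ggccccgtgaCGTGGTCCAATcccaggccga
HYOU1, downstream match (chr11:119057264-119057294, minus strand): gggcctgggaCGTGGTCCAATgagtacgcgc
SDF2L1 (chr22:21642104-21642134, plus strand): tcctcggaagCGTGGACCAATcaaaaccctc
HERPUD1 (chr16:56932015-56932045, plus strand): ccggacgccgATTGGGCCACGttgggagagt

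The XBP1-type element UPRE, searched as TGACGTGG, was found in 217 promoters (0.795%), among them HYOU1, where it overlapped an ERSE-II match, and DNAJC10. The element bound by ATF4 with C/EBP partners, CARE, searched as TGATGNAA, was found in 1003 promoters (3.67%) and in 1 member, HERPUD1. The 250 bases before the start are printed for 3 chaperone-system genes whose messengers behaved differently, with every ERSE, ERSE-II or UPRE match in capitals.
HSPA5 (chr9:125241344-125241593, minus strand): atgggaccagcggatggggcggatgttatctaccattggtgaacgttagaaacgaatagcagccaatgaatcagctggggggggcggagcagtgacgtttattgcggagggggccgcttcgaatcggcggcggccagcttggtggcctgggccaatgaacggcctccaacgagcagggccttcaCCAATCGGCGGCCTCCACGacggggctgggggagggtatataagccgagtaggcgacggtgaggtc
HYOU1 (chr11:119057206-119057455, minus strand): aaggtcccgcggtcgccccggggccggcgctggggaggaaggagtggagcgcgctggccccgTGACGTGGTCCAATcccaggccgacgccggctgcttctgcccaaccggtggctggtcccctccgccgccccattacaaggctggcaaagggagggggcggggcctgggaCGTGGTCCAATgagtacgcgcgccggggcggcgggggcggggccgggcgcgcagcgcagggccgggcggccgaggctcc
SDF2L1 (chr22:21642052-21642301, plus strand): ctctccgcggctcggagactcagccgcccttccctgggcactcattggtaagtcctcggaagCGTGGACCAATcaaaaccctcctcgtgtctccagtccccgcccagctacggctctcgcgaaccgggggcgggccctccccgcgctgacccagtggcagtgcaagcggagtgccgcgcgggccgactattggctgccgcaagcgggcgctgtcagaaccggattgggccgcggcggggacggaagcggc

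More of the members were lower in 3D than higher. By edgeR's quasi-likelihood test with Benjamini-Hochberg adjustment over all 15314 genes, at an adjusted p under 0.05, 17 of the 39 were lower and 3 were higher, and 19 did not pass. Among all genes tested, 17.6% were called lower and 19% higher, so the 43.6% of members called lower stood well above the background share and the 7.69% called higher below it. Because the list was chosen with earlier results of these data known, this contrast is a description and was not tested. The median log2 fold change of the members was -0.32 (range -2.0 to 0.72), against 0.02 over all genes tested. In 19 members every 3D sample lay below every 2D sample, and in 5 every 3D sample lay above; over all genes tested these shares were 24.9% and 25.6%, or 50.5% in either direction. Of the 17 members called lower, 8 were at least halved, while no member called higher was at least doubled. The count called higher rested partly on the second 2D replicate, since 5 members were called higher without it. In such bulk samples, fewer cells of a kind and less RNA per cell cannot be told apart.

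The messenger of the whole list shrank as a share of the library. The 39 members summed to 12773, 13579 and 10833 CPM in the 2D samples and to 8639, 10645 and 10649 CPM in the 3D samples, 12395 ± 1411 against 9978 ± 1159 (SD, n = 3 each). These sums correspond to 1.09% to 1.36% of all counts in 2D and 0.914% to 1.04% in 3D, and the groups did not overlap, though the third 2D replicate came close to the highest 3D samples. By role, the median log2 fold change was -0.62 for the sensors and factors, -0.54 for the HSP70 and HSP90 system, -0.35 for degradation, -0.05 for glycoprotein folding and isomerases, and -0.06 for translocation and export.

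**Figure D1:**
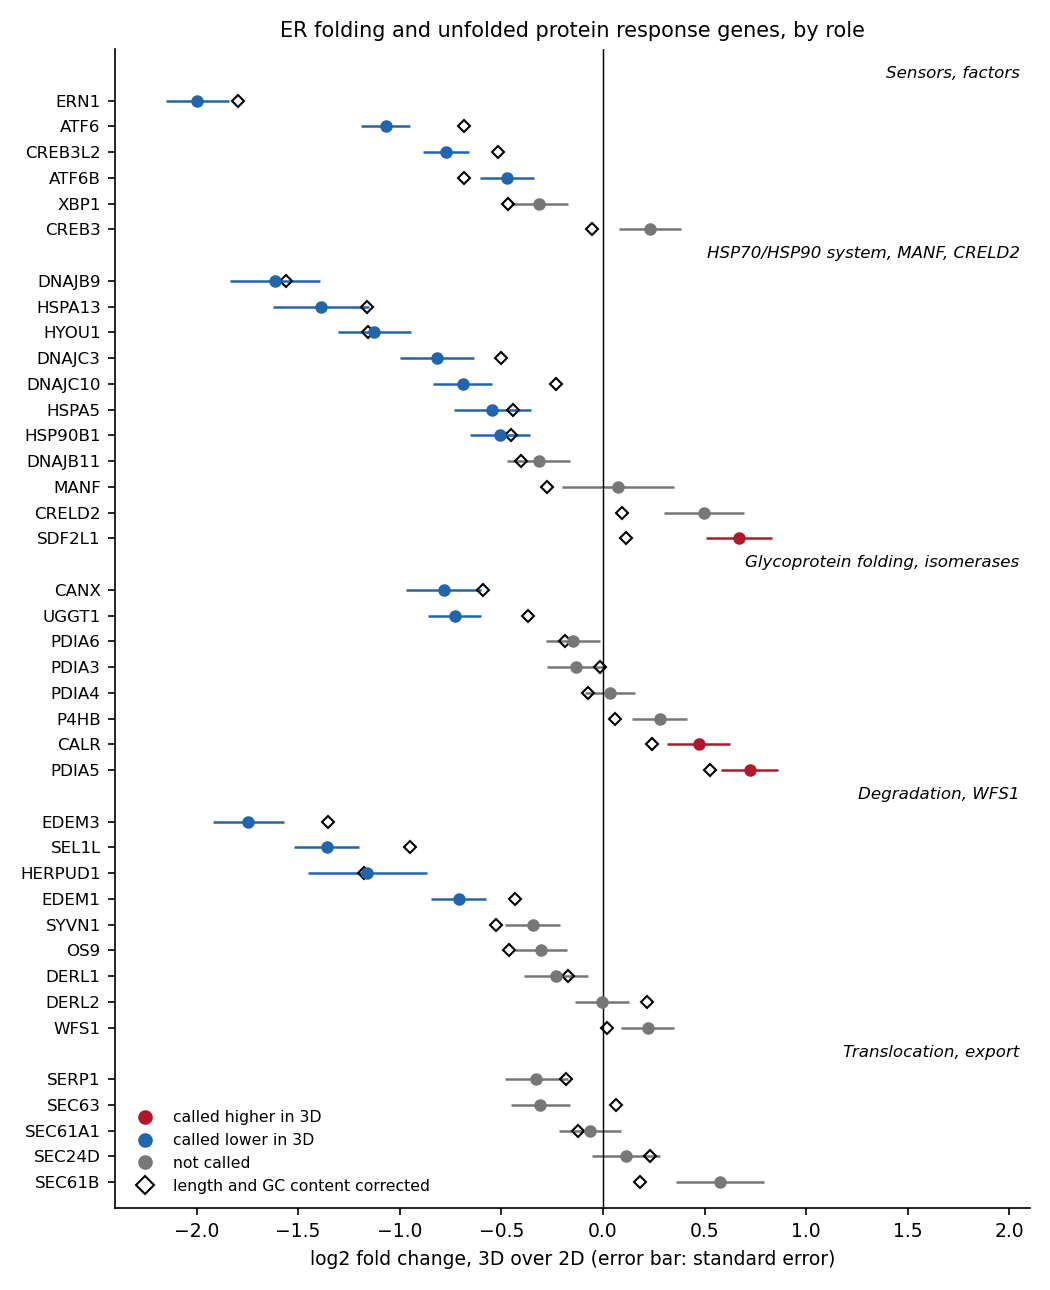
Log2 fold change of each of the 39 members in 3D over 2D (x axis), grouped by role. Filled points are edgeR estimates with standard errors, coloured by call, and open diamonds are the estimates after correction for transcript length and GC content. Sensors and degradation genes reach furthest to the left, down to -2.0 for ERN1, while the translocation genes lie around 0 and the 3 genes called higher lie between 0.47 and 0.72.

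Among the 6 sensors and transcription factors, 4 were called lower and none higher (66.7% and 0%, beside 17.6% and 19% of all genes tested). The largest difference of any member was that of ERN1, which encodes the IRE1 kinase and endoribonuclease (chromosome 17, 64039142 to 64130820; hg38). Its level was 109, 116 and 79.4 CPM in the 2D samples and 24.2, 26.6 and 25.3 CPM in the 3D samples, 101 ± 19.5 against 25.4 ± 1.21 (SD, n = 3 each). The 3D samples were almost equal to each other and far below the lowest 2D sample, a 3.99-fold difference (log2 fold change -2.0, SE 0.16, edgeR adjusted p = 2e-05). XBP1, whose messenger IRE1 splices, was measured at 436, 403 and 419 CPM in 2D and at 279, 350.1 and 383 CPM in 3D. Every 3D sample was below every 2D sample, but the difference did not pass the test (log2 fold change -0.31, SE 0.14, edgeR adjusted p = 0.097). The ratio of ERN1 to XBP1 within a library, which no scaling affects and which was chosen after the values were seen, was 0.190 to 0.288 in 2D and 0.0661 to 0.0866 in 3D. In each sample XBP1 was therefore the more abundant by CPM, and the gap was wider in every 3D sample.

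ATF6, the Golgi-cleaved sensor (chromosome 1, 161766294 to 161964071), had 95.5, 95.0 and 81.3 CPM in 2D and 42.8, 44.8 and 41.8 CPM in 3D. The groups were far apart and the 3D samples tight, with a log2 fold change of -1.07 (SE 0.12, edgeR adjusted p = 0.000126). Its relative ATF6B, cleaved in the same way, had 44.95, 52.7 and 44.7 CPM in 2D and 37.4, 31.0 and 34.5 CPM in 3D. All 3D samples of ATF6B lay below all 2D samples, with a smaller difference (log2 fold change -0.47, SE 0.13, edgeR adjusted p = 0.0167) that missed the threshold when the second 2D replicate was left out (adjusted p = 0.0756). CREB3L2, a further factor freed from the ER membrane by cleavage, had 258, 239.9 and 247 CPM in 2D and 143, 155 and 137 CPM in 3D. It fell by 0.77 on the log2 scale (SE 0.11, edgeR adjusted p = 0.000513), again without overlap. CREB3, of the same protein family, overlapped between the groups, with 15.7, 19.2 and 18.4 CPM in 2D and 18.7, 23.1 and 20.7 CPM in 3D (log2 fold change 0.23, SE 0.15, adjusted p = 0.254). Reads from CREB3 and from its overlapping neighbours on the other strand could have been shared between them, since how strand was treated in counting is not known here.

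The HSP70 and HSP90 system, with the secreted factors MANF and CRELD2, held 11 members, of which 7 were called lower and 1 higher. These shares were 63.6% and 9.09%, beside 17.6% and 19% of all genes tested. HSPA5, the BiP chaperone and a widely used marker of the response, had 1429.9, 1670.4 and 1017 CPM in 2D and 788, 1043 and 993 CPM in 3D. Its groups overlapped, because the third 2D replicate was below the second 3D replicate. The difference passed narrowly (log2 fold change -0.54, SE 0.19, edgeR adjusted p = 0.0413), and it missed the threshold in 5 of the 6 fits that left out 1 library (adjusted p = 0.0568 to 0.169). The exception was the fit without the third 2D replicate (-0.73, adjusted p = 0.0106). HSP90B1, the GRP94 chaperone, had 1510.5, 1490.5 and 1264 CPM in 2D and 873, 1099 and 1029 CPM in 3D. It did not overlap (log2 fold change -0.51, SE 0.15, edgeR adjusted p = 0.0182), and the call was lost without the first 2D replicate (adjusted p = 0.0826) or the second (0.0661).

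Several cofactors that work with BiP were also lower. HYOU1, a large HSP70-type protein that exchanges nucleotide on BiP, had 439, 479 and 282 CPM in 2D and 173, 188 and 188 CPM in 3D. The 3D samples were nearly equal and all lay under the lowest 2D sample (log2 fold change -1.13, SE 0.18, edgeR adjusted p = 0.000819). DNAJB9, the J-domain protein ERdj4, which is known to bring BiP to IRE1 and to hold IRE1 inactive, had 75.2, 86.6 and 51.5 CPM in 2D and 17.1, 27.8 and 24.3 CPM in 3D. This was the largest difference in the group, 3.06-fold (log2 fold change -1.62, SE 0.22, edgeR adjusted p = 0.000507). The DNAJB9 gene is overlapped by neighbours on the other strand, so its counts carry the same reservation as those of CREB3. Further members had overlapping neighbours too. On the other strand, ALG12 had 70.6% as many counts as CRELD2, EIF2A 72.3% as many as SERP1 and MIS12 78.9% as many as DERL2. FAU, on the same strand as SYVN1, had 219% as many. HSPA13, a microsome-associated HSP70 relative, had 135, 153 and 109.6 CPM in 2D against 32.5, 66.4 and 52.4 CPM in 3D. DNAJC3, the cofactor P58IPK, had 141, 167 and 116 CPM in 2D against 60.6, 97.1 and 82.7 CPM in 3D. Both were lower with no overlap, by -1.39 (SE 0.24, edgeR adjusted p = 0.00207) and -0.82 (SE 0.18, adjusted p = 0.00601). The seventh member called lower was the reductase DNAJC10, also known as ERdj5 (log2 fold change -0.69, edgeR adjusted p = 0.00369).

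The remaining 4 members of this group went the other way or did not pass. SDF2L1, a partner of ER J-domain proteins and one of the smallest messengers of the list, rose in 3D from 17.8, 23.2 and 15.8 CPM to 28.96, 29.3 and 31.9 CPM. All 3D samples were above all 2D samples, a 1.59-fold difference (log2 fold change 0.67, SE 0.16, edgeR adjusted p = 0.00784). After correction for transcript length and GC content the estimate for SDF2L1 was 0.12 (adjusted p = 0.588). CRELD2, a secreted ER protein induced by stress, was higher in every 3D sample (26.9 to 31.4 CPM) than in any 2D sample (14.5 to 26.3 CPM), but did not pass (log2 fold change 0.50, edgeR adjusted p = 0.067). MANF, a secreted stress-induced factor, spread more widely within each culture, at 43.2 to 75.2 CPM in 2D and 37.0 to 70.9 CPM in 3D, than between them (log2 fold change 0.07). DNAJB11, a BiP cofactor, had an estimate of -0.32 (adjusted p = 0.134).

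**Figure D2:**
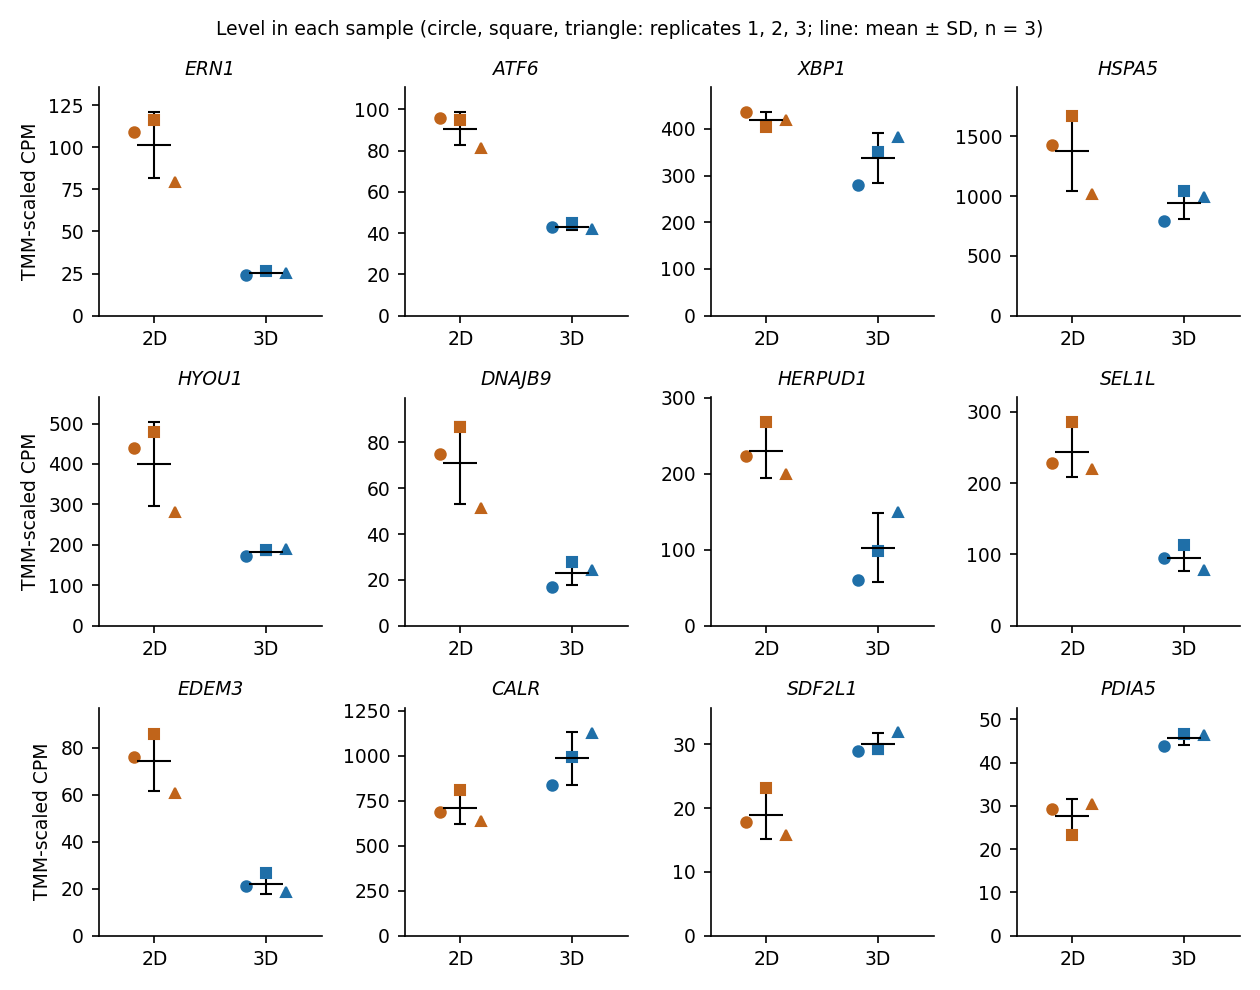
TMM-scaled CPM (y axis, from 0) of 12 members in each of the 6 samples, with the mean and SD of each culture (n = 3). Circles, squares and triangles are replicates 1, 2 and 3. ERN1, ATF6, HYOU1, DNAJB9, HERPUD1, SEL1L and EDEM3 separate downwards, HSPA5 overlaps between the cultures, and CALR, SDF2L1 and PDIA5 separate upwards.

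Of the 8 members in glycoprotein folding and the disulfide isomerases, 2 were called lower and 2 higher. At 25% each, these shares were near those of all genes tested (17.6% lower and 19% higher). The split therefore shows nothing particular to the group. Calnexin and calreticulin, the membrane-bound and the soluble lectin of the same folding cycle, moved in opposite directions. CANX had 1392, 1616 and 1142 CPM in 2D and 619, 949 and 843 CPM in 3D (log2 fold change -0.78, SE 0.18, edgeR adjusted p = 0.0069). CALR had 686, 812 and 638 CPM in 2D and 837, 993 and 1129 CPM in 3D (log2 fold change 0.47, SE 0.15, edgeR adjusted p = 0.032). Neither gene overlapped between the cultures. The call on CALR was the less stable: it was lost without replicate 1 or 3 of 2D or replicate 2 or 3 of 3D (adjusted p = 0.0714 to 0.127), and after the length and GC correction (0.24, adjusted p = 0.194). The ratio of CANX to CALR within each library was 1.79 to 2.03 in 2D and 0.739 to 0.955 in 3D, and that of HSPA5 to CALR 1.59 to 2.09 in 2D and 0.880 to 1.05 in 3D. These ratios, chosen after the values were seen, do not depend on how libraries were scaled, and in both the cultures were fully separated.

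UGGT1, the glucosyltransferase that returns incompletely folded glycoproteins to the lectins, had 399, 434 and 377 CPM in 2D and 210.3, 254 and 265 CPM in 3D. All 3D samples lay below, with a log2 fold change of -0.73 (SE 0.13, edgeR adjusted p = 0.00154). The estimate was -0.37 after the length and GC correction (adjusted p = 0.0573). PDIA5, a protein disulfide isomerase, showed the largest rise of any member, from 29.3, 23.2 and 30.5 CPM to 43.9, 46.5 and 46.4 CPM. The 3D samples were tight and all above 2D (1.65-fold, log2 fold change 0.72, SE 0.14, edgeR adjusted p = 0.00227). PDIA5 was the 1 member still called higher after the length and GC correction. The PDIA5 gene is overlapped by SEC22A on the same strand, which had 22.7% as many counts, so reads could have been shared between them.

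None of the other isomerases passed the test. PDIA4 had 510.2, 476 and 435 CPM in 2D and 459, 488 and 509 CPM in 3D, overlapping throughout (log2 fold change 0.03, SE 0.12, adjusted p = 0.853). PDIA3 and PDIA6 had estimates of -0.14 and -0.15, and neither passed. The pseudogene PDIA3P1 was itself given 19.0% as many counts as PDIA3, so how reads were divided between these near-copies bears on the level of PDIA3. P4HB, the founding disulfide isomerase, lay above 2D in every 3D sample (1435 to 1671 against 1258 to 1381 CPM) without passing (log2 fold change 0.28, edgeR adjusted p = 0.127).

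Levels can be compared between genes only per length. Divided by the length in kilobases of the principal transcript, P4HB was the most abundant member in 2D at 504 CPM per kb, followed by HSP90B1 at 497, CALR at 374, HSPA5 at 351 and CANX at 325. On the same scale P4HB was at 611 CPM per kb in 3D and CALR, now next in order, at 518, with HSP90B1 at 350.0 and HSPA5 at 241. P4HB and HSP90B1 were neighbours in 2D that did not differ beyond their spread. The least abundant per length in 3D were EDEM3 and ERN1, each at 3.2 CPM per kb, and ATF6 at 5.8.

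Of the 9 measured members assigned to ER-associated degradation, WFS1 included, 4 were called lower and none higher. These shares were 44.4% and 0%, beside 17.6% and 19% of all genes tested. EDEM3, a mannosidase-like protein that marks misfolded glycoproteins for destruction, had 75.8, 85.7 and 60.8 CPM in 2D and 20.9, 26.8 and 18.4 CPM in 3D. The groups were far apart, a 3.35-fold difference (log2 fold change -1.74, SE 0.17, edgeR adjusted p = 6.8e-05). Its relative EDEM1 had 102, 105 and 83.0 CPM in 2D and 54.7, 66.9 and 56.0 CPM in 3D (log2 fold change -0.71, SE 0.14, edgeR adjusted p = 0.00226). SEL1L, the scaffold of the membrane ubiquitin ligase complex, had 228, 286 and 219.5 CPM in 2D and 94.3, 114 and 77.6 CPM in 3D. Its difference was 2.57-fold with no overlap (log2 fold change -1.36, SE 0.16, edgeR adjusted p = 0.000162). HERPUD1, which recruits factors to that complex, had 223, 268 and 199 CPM in 2D and 59.7, 98.6 and 150.2 CPM in 3D. The 3D samples of HERPUD1 were spread over a wide range yet stayed under the lowest 2D sample (log2 fold change -1.16, SE 0.29, edgeR adjusted p = 0.0159).

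The other 5 measured genes of this group did not pass. SYVN1, the ligase HRD1 that SEL1L scaffolds, had an estimate of -0.35 (edgeR adjusted p = 0.0662), and the lectin OS9, which hands glycoproteins to the complex, one of -0.30 (adjusted p = 0.0818). After the length and GC correction both were called lower, SYVN1 at -0.53 (adjusted p = 0.00668) and OS9 at -0.46 (adjusted p = 0.00709). The derlins DERL1 and DERL2, candidate parts of the retrotranslocation channel, had estimates of -0.23 and -0.01, and WFS1, the membrane protein affected in Wolfram syndrome, one of 0.22.

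None of the 5 translocation and export members passed the test, beside 36.6% of all genes tested that were called in either direction. The log2 fold changes were -0.33 for SERP1, which stabilises newly inserted membrane proteins, -0.31 for SEC63, the J-domain subunit of the translocon, -0.06 for SEC61A1, its channel subunit, 0.11 for SEC24D, a cargo adaptor of COPII vesicles, and 0.58 for SEC61B, the small subunit of the channel. SEC61B had 59.5, 72.2 and 49.3 CPM in 2D and 60.5, 107 and 101 CPM in 3D, so that the first 3D replicate alone lay among the 2D samples. Without that replicate the adjusted p of SEC61B was 0.00298, against 0.0621 with all 6 libraries, and without the second 2D replicate it was 0.0492. SEC61B is the shortest messenger of the list at 545 nt, and after the length and GC correction its estimate was 0.18 (adjusted p = 0.531). SERP1 was called lower without the third 2D replicate (adjusted p = 0.0480) or the second 3D replicate (0.0469).

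Read by arm, the members usually assigned to ATF6 and those assigned to XBP1 were counted apart. Of 9 measured members taken as ATF6 targets, 4 were called lower and 2 higher (44.4% and 22.2%). Their median log2 fold change was 0.03. Of 8 taken as XBP1 targets, 3 were called lower and none higher (37.5% and 0%), with a median of -0.32. Over all genes tested 17.6% were called lower and 19% higher. The share of ATF6 targets called higher was thus near the background. The assignment follows textbook knowledge, many of these genes answer to both factors, and the difference between the arms was not tested. The ATF6 targets had shorter transcripts with more GC (medians 2858 nt and 53.9%) than the XBP1 targets (3982 nt and 44.1%). After the length and GC correction CALR and SDF2L1 were no longer called higher (0.24 and 0.12). HSPA5 was no longer called lower, and the XBP1 target DNAJB11 was. The corrected estimates of the ATF6 targets ran from -1.18 (HERPUD1) to 0.24 (CALR), with MANF in the middle at -0.28. Those of the XBP1 targets ran from -1.56 (DNAJB9) to 0.23 (SEC24D), with DNAJB11 (-0.40) and SERP1 (-0.18) in the middle. With the correction the middles of the arms therefore lay close together. The part of length and GC content in the difference was not tested. The counts for the ATF6 targets moved to 2 lower without the first or the second 2D replicate, and to 1 higher without replicate 1 or 3 of 2D or replicate 2 or 3 of 3D. Matches to the promoter elements were found in members called in either direction and in members not called. With only 3 members called higher, a sorting by direction could be neither shown nor excluded. The search took exact letters, so inexact elements count as absent. ERSE or ERSE-II was present in 37 of all promoters searched (0.136%) and in 10 members: 5 of the 17 called lower, 2 of the 3 called higher and 3 of the 16 uncalled members that had a window. HYOU1 with 2 ERSE-II matches and HERPUD1 with 1 were lower in 3D, while SDF2L1 with 1 was higher. HSPA5, HSP90B1 and CANX, each with ERSE, were lower, while CALR with the same element was higher.

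For the third arm, the messengers of 10 genes around PERK and ATF4 that are not members were read. Their levels do not show the activity of PERK, and which signal set them was not tested. CHAC1 was too low to test, and of the other 9, 6 were called lower and none higher (median log2 fold change -0.85). These shares were 66.7% and 0%, beside 17.6% and 19% of all genes tested. EIF2AK3, encoding PERK, had 47.2, 55.3 and 46.4 CPM in 2D and 30.7, 33.4 and 39.8 CPM in 3D, with no overlap (log2 fold change -0.52, SE 0.14, edgeR adjusted p = 0.014). The call on EIF2AK3 was lost without the second 2D replicate (adjusted p = 0.0622) and after the length and GC correction (-0.32, adjusted p = 0.0856). ATF4, the factor whose translation PERK favours, had 775, 824 and 659 CPM in 2D and 444, 536 and 635 CPM in 3D (log2 fold change -0.48, SE 0.16, edgeR adjusted p = 0.0311), and its call was lost without replicate 1 or 2 of either culture (adjusted p = 0.0568 to 0.107). TRIB3, a pseudokinase induced by ATF4, was lower by the most, from 503 ± 48.3 to 188 ± 23.1 CPM (SD, n = 3 each; log2 fold change -1.42, edgeR adjusted p = 6.08e-05). PPP1R15A and PPP1R15B, the regulatory subunits of the phosphatase that reverses PERK's mark on eIF2alpha, had log2 fold changes of -1.09 (edgeR adjusted p = 0.0398) and -0.997 (adjusted p = 0.000449). PPP1R15A had 114, 167 and 108 CPM in 2D and 41.4, 43.2 and 97.0 CPM in 3D, so that the third 3D replicate lay close to the 2D samples. Its call was lost in 5 of the 6 fits that left out 1 library, the exception being the fit without that replicate, and with no filter on low counts (adjusted p = 0.0727). SESN2, a stress-induced sestrin, was the sixth (-0.96, adjusted p = 0.00194). DDIT3, the factor CHOP, had 26.2 to 33.1 CPM in 2D and 7.93, 13.4 and 26.7 CPM in 3D. The third 3D replicate of DDIT3 was among the 2D values, and the difference did not pass (log2 fold change -0.85, SE 0.36, edgeR adjusted p = 0.102). Without that replicate DDIT3 was called lower (-1.44, adjusted p = 0.00211), as it was by limma-voom (0.0496) and after the length and GC correction (-1.18, adjusted p = 0.0327). ATF3 (-0.53) and NUPR1 (0.30) did not pass either. Over the alternative settings the number of these genes called lower ranged from 3, without the second 2D replicate, to 7, and none was called higher.

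In the wider ER machinery the calls were mixed. Of 104 further pathway genes listed, 101 were in the table and 100 were tested. Across those 100, the PERK arm included, 13 were called higher and 22 lower (13% and 22%, beside the background shares of 19% and 17.6%), with a median log2 fold change of -0.08. Of 8 genes that process or carry the sensors' signals, 2 were higher and 2 lower (median 0.12). The site-1 and site-2 proteases that cut ATF6, MBTPS1 and MBTPS2, were both lower, from 177 ± 13.4 to 107 ± 4.16 CPM and from 45.2 ± 0.799 to 25.6 ± 3.75 CPM (SD, n = 3; edgeR adjusted p = 0.000733 and 0.00106). TRAF2, an adaptor of IRE1, was higher (log2 fold change 0.55, edgeR adjusted p = 0.0236), a call lost after the length and GC correction (0.23, adjusted p = 0.196) and in the fits without any 1 of the 2D replicates or the first 3D replicate (0.0510 to 0.0905). ERN2, the epithelial relative of IRE1, was higher at a low level, 1.06 to 2.00 CPM in 2D and 3.04 to 5.65 CPM in 3D (log2 fold change 1.48, edgeR adjusted p = 0.00693). Of the further genes, 13 were called lower without the second 2D replicate, and 7 or 8 were called higher without any 1 of the 2D replicates or the third 3D replicate. Among 23 other folding genes 5 were lower and none higher, including ERO1B, an oxidase that recharges disulfide isomerases (15.7 ± 5.61 to 4.55 ± 0.538 CPM, adjusted p = 0.000441). Among 21 other ERAD genes, 5 were higher and 4 lower. The cytosolic ATPase VCP, which pulls substrates out of the membrane, had 229, 236 and 221 CPM in 2D and 394, 380.0 and 395 CPM in 3D (log2 fold change 0.77, SE 0.11, edgeR adjusted p = 0.000502). Its cofactor gene UFD1L rose from 26.5 ± 0.224 to 50.1 ± 3.89 CPM (log2 fold change 0.92, adjusted p = 0.000311). For the translocon, signal peptidase and oligosaccharyltransferase, 2 of 21 were higher and 2 lower (median -0.03), and for the COPII coat 2 of 12 higher and 1 lower (median 0.05).

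Within a culture the members also moved together between replicates. The second 2D replicate was the highest of its group in 28 of the 39 members (71.8%, against 34.6% of all genes tested). The third 2D replicate was the lowest in 34 (87.2%, against 33.6%). In 3D, the first replicate was the lowest in 30 members (76.9%, against 38.2%) and the second the highest in 23 (59.0%, against 35.1%). The members' median deviation from each gene's mean over the 6 samples was 0.22, 0.33 and 0.03 on the log2 scale in the 2D replicates and -0.37, -0.11 and -0.01 in the 3D replicates. Thus the third 2D replicate and the third 3D replicate lay close to each other, and the ends of the range were the second 2D and the first 3D replicate. With both of those left out, 15 members were called lower and 6 higher, against 17 and 3 with all libraries. This setting was listed among the alternatives, but its libraries are the ends of the members' own range. It is therefore not an independent check, and the share of all genes called in it is not given here. Markers of cycling cells varied across the same libraries: MKI67, TOP2A, CCNB1, MCM2 and PCNA summed to 582, 353 and 891 CPM in the 2D replicates and to 1268, 1250.1 and 1084 CPM in the 3D replicates. In 2D the library with the highest cycling sum was the lowest for the ER genes and the one with the lowest sum was the highest, and the part of proliferation in the result was not tested.

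**Figure D3:**
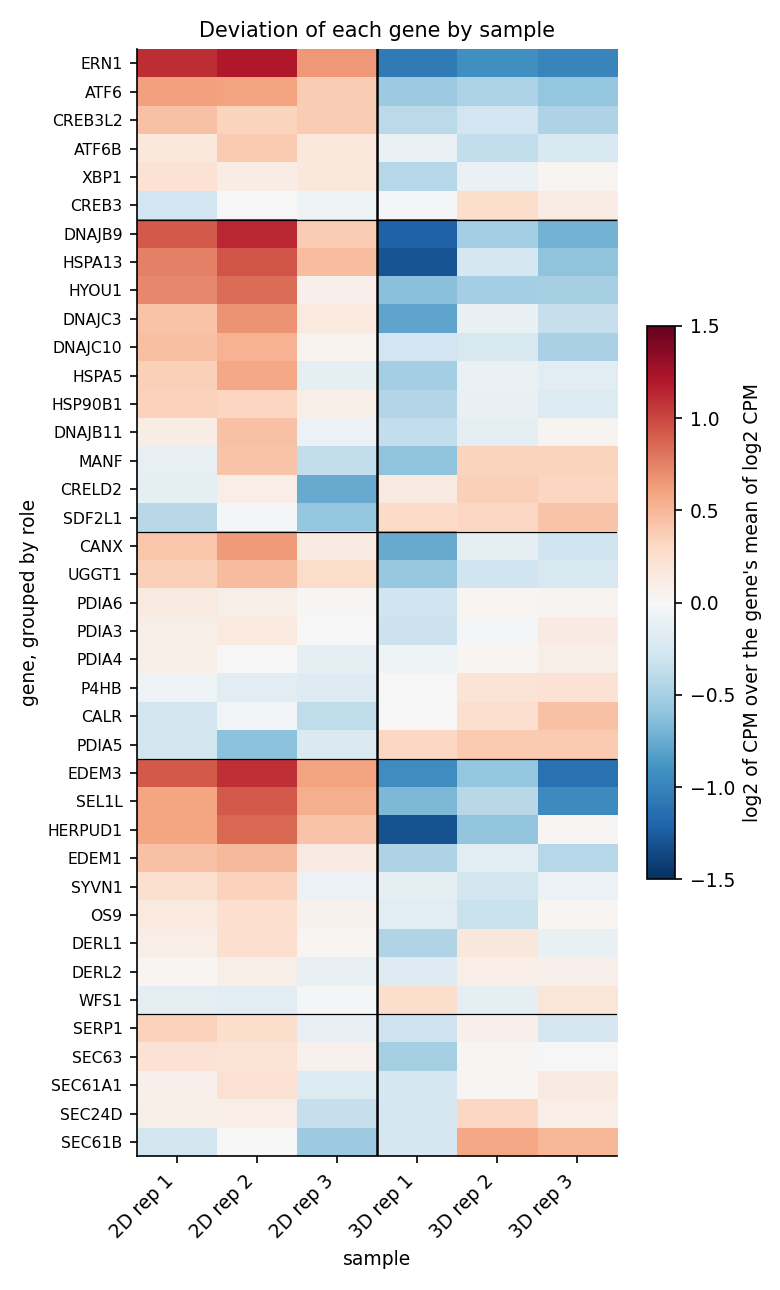
Deviation of each member (rows, grouped by role and ordered by fold change) in each sample (columns) from that gene's mean over the 6 samples, in log2 CPM. The second 2D replicate holds the deepest reds and the first 3D replicate most of the deepest blues, while the third replicate of both cultures is pale for many genes, with median deviations of 0.03 and -0.01.

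Longer messengers among the members had lower fold changes. Across the 39 members, which share the same 6 libraries, Spearman's rho between log2 fold change and transcript length was -0.699, and that with GC content was 0.573. Across 13784 tested genes with both values these were -0.369 and 0.314. Over all genes tested, of any length, 17.6% were called lower and 19% higher, and shares by length were not computed. Of the 13 shortest members (545 to 2691 nt) 3 were called higher and 1 lower, with a median log2 fold change of 0.23. Of the 13 in the middle (2715 to 4030 nt) 5 were lower and none higher (median -0.33), and of the 13 longest (4209 to 20129 nt) 11 were lower and none higher (median -0.78). A fit with an offset for length and GC content in each library, which removes the trend shared by all genes, called 18 members lower and 1 higher, with a median of -0.37. The share of all genes called in that fit is not given here, so these counts stand without a background share. Of the 17 called lower before, 14 were called lower again. HSPA5 (-0.44, adjusted p = 0.0806), DNAJC10 (-0.23, adjusted p = 0.242) and UGGT1 were lost, and XBP1 (-0.47, adjusted p = 0.00991), DNAJB11 (-0.40, adjusted p = 0.0458), SYVN1 and OS9 were gained. ERN1 remained at -1.80, DNAJB9 at -1.56, EDEM3 at -1.35, HERPUD1 at -1.18, HYOU1 at -1.15, SEL1L at -0.95 and ATF6 at -0.68, so the lower level of these genes was present with and without the correction.

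**Figure D4:**
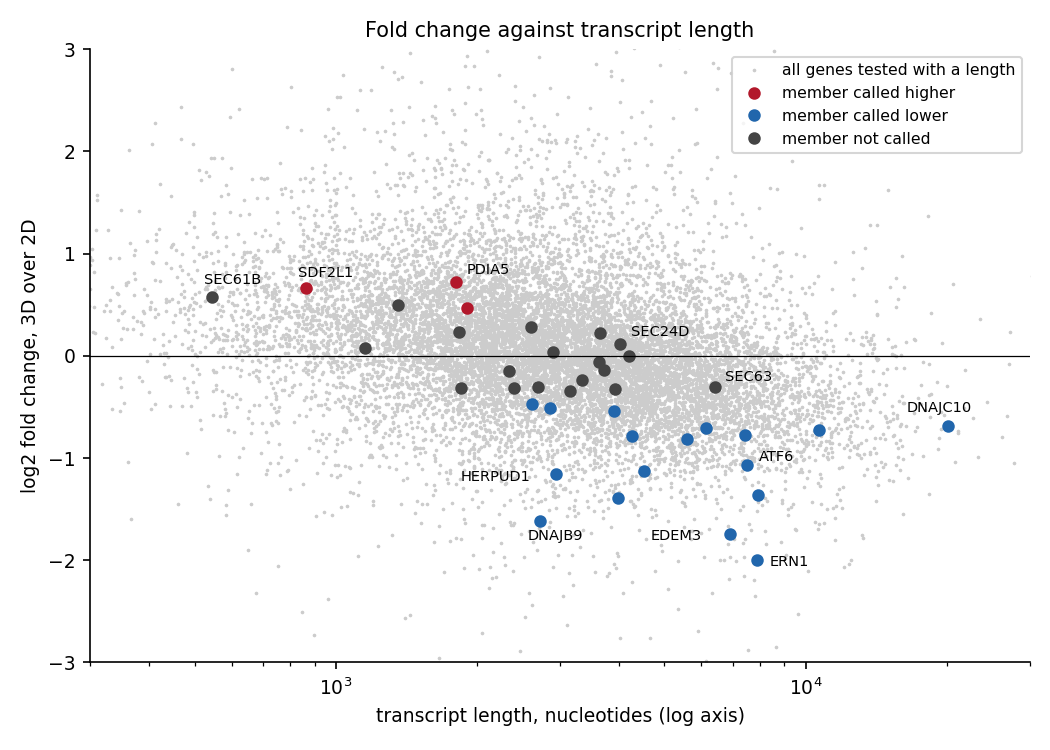
Log2 fold change in 3D over 2D (y axis, drawn from -3 to 3) against the length of the principal transcript in nucleotides (log x axis). Grey points are all genes tested with a length and coloured points the 39 members by call; 124 genes outside the axes are not drawn. The 3 members called higher lie at short lengths, and most of those called lower lie to the right and below the bulk of the grey points.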

How the data were processed

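Messenger RNA libraries from 3 2D and 3 3D samples of HepG2 cells were analysed. The authors deposited 1 table of estimated counts per gene with start and stop positions; per the submitters' processing notes, reads were aligned with STAR 2.4.1d and processed in Partek on hg38. Counting settings, strand included, were not given in the sources used here. In the deposited estimated counts 61.7% of values were whole numbers, and no gene had a total under 10 over all samples. Rounding to integers before the test moved each library total by at most 25.

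Genes were filtered with filterByExpr, scaled by TMM and tested with edgeR 4.0.16 (glmQLFit, robust, and glmQLFTest; R 4.3.3), with Benjamini-Hochberg adjustment over 15314 genes and a threshold of 0.05. Levels are TMM-scaled CPM, computed here. Library totals of 9530795 to 17943513 counts limit the precision for genes of low level. Replicates of 1 group differed by far more than sampling noise (chi-square per degree of freedom 10.3 to 26.7), so none was counted as a duplicate. Transcript lengths and GC content came from GENCODE 29. In 95.3% of the genes matched 1 to 1, the deposited start equalled GENCODE's and the deposited stop lay 1 base beyond its end. The gene positions printed for ERN1 and ATF6 are those of the deposited table. Promoter sequences and their coordinates came from RefSeq (GRCh38.p14), whose starts can differ from the deposited ones, as for CANX. The fit was also tested on simulated data.

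The members and all gene lists were chosen with earlier results of these data known. Per-sample values are given for every sensor or transcription factor, for up to 4 called members in each direction in each other role, and for 8 further members fixed by name; SEC61B, CRELD2, MANF, P4HB and DNAJC10 are given with values because of what they showed. Of the further pathway genes, all of the PERK arm and the 2 with the most extreme call in each direction per list were eligible. HGSNAT and COL6A1 were named as well, to complete their list. Alternatives were DESeq2 1.42.0, limma-voom (limma 3.58.1), RLE and upper-quartile scaling, TMM without mitochondrial genes and the 50 most abundant genes, no filter or at least 1 CPM in 3 samples, the replicate number as a block, a loess offset for length and GC content (span 0.5), both of these together, leaving out each library, and leaving out 2 libraries together.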

Additional observations from a re-analysis of the deposited data

How the results depend on the processing

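Of the 20 members called, 13 kept their call under all 17 alternatives (ERN1, ATF6, CREB3L2, HSPA13, HYOU1, DNAJB9, DNAJC3, PDIA5, CANX, HERPUD1, SEL1L, EDEM1 and EDEM3), and of the 19 not called, 10 were called under none. The number of members called lower stayed between 14 and 19, and their median log2 fold change between -0.44 and -0.24. For the counts that moved, the cause was not tested. Translocation and export had 1 member called higher under DESeq2, under upper-quartile scaling and with the replicate block, and the HSP70 and HSP90 group had 2 called higher under limma-voom. Replicate numbers did not pair the samples (correlations of same-numbered deviations 0.053, -0.0092 and -0.078), and not every sample correlated best with its own number; the replicate block called 4 members higher and 17 lower, with 2 higher in the HSP70 and HSP90 group and 1 in glycoprotein folding, where CALR missed the threshold (adjusted p = 0.0552). The length and GC correction left 1 member higher, with 0 in the HSP70 and HSP90 group, 1 higher and 1 lower in glycoprotein folding and 0 of the ATF6 targets higher; together with the replicate block these values were the same (1, 0, 1, 1 and 0) and 8 further pathway genes were higher. Without the second 2D and the first 3D replicate together, 6 members, 3 of the HSP70 and HSP90 group, 1 of translocation and 4 ATF6 targets were higher, and 2 ATF6 targets and 13 further genes were lower. Leaving out 1 library at a time gave 1938 to 2817 for all genes higher in 3D, 7 to 14 further genes higher and 13 to 28 lower, 2 to 5 members higher, 1 to 2 higher in glycoprotein folding and in the HSP70 and HSP90 group, 1 to 3 ATF6 targets higher and 2 to 4 lower, 0 to 1 translocation members in each direction, and 0 to 1 degradation members higher.

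Of the estimates that changed sign, none was called under the alternative, and SSR1 was the 1 gene called with all libraries (lower, -0.42, edgeR adjusted p = 0.0487). DERL2 became 0.0168 under upper-quartile scaling and 0.0020 under the TMM without abundant genes. Under the length and GC correction CREB3 became -0.0551, MANF -0.28, PDIA4 -0.0745, DERL2 0.22, SEC63 0.0653 and SSR1 0.0060, and with the replicate block added these were -0.0616, -0.30, -0.0720, 0.22, 0.0560 and 0.0111. Leaving out 1 library at a time, MANF ranged from -0.0975 to 0.31, PDIA4 from -0.0329 to 0.0824, DERL2 from -0.0699 to 0.0654, SEC61A1 from -0.18 to 0.0268, SEC24D from -0.0291 to 0.24 and NUPR1 from -0.20 to 0.53. Without the second 2D and first 3D replicates, PDIA3 was 0.00070, DERL2 0.11 and SEC61A1 0.13. Depth limits the lowest genes, such as SDF2L1 and CREB3, more than the abundant chaperones.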

Other observations

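The ERSE and ERSE-II letters were also found in promoters of genes outside the list. Of the 37 promoters with either element, 25 belonged to tested genes, 10 of them members. Of the other 15, 3 were called higher and 4 lower, beside 19% and 17.6% of all genes tested, so these counts show nothing particular to such promoters; the called genes were looked up after their values were seen. FICD, the enzyme that attaches AMP to BiP and removes it, was lower with 8.14, 12.3 and 6.33 CPM in 2D and 3.07, 5.36 and 3.80 CPM in 3D (log2 fold change -1.11, SE 0.29, edgeR adjusted p = 0.0115). ERO1B, TMEM120A and TRIM5 were the other genes called lower, at -1.79, -0.50 and -0.78, and GYS1, the muscle-type glycogen synthase, RAD9A and SHCBP1 were called higher, at 1.08, 0.72 and 1.33. ALG12 and EIF2A, divergent neighbours of the members CRELD2 and SERP1, were not called (-0.25 and -0.35).

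Of 6 transcripts tested that have been reported as cut by IRE1, 2 were higher and 2 lower in 3D, beside background shares of 19% and 17.6%. With 6 genes, too few to read a count for the group, each is given as a single gene. HGSNAT (log2 fold change 0.20, edgeR adjusted p = 0.292) and COL6A1 (-0.32, adjusted p = 0.119) were not called. SPARC, a secreted matrix protein, had 24.0, 29.2 and 48.6 CPM in 2D and 68.1, 85.2 and 61.9 CPM in 3D (log2 fold change 1.08, SE 0.25, edgeR adjusted p = 0.00841). BLOC1S1, a lysosome-positioning subunit often used to read this activity, had 12.5, 12.4 and 13.7 CPM in 2D and 18.3, 21.4 and 21.9 CPM in 3D (log2 fold change 0.68, SE 0.15, adjusted p = 0.00516), an estimate of 0.11 after the length and GC correction (adjusted p = 0.552). PDGFRB, a receptor kinase, was lower, from 10.6 ± 3.39 to 3.21 ± 0.305 CPM (SD, n = 3 each; edgeR adjusted p = 0.00065), and so was SCARA3, a scavenger receptor, from 27.4 ± 4.24 to 16.6 ± 1.47 CPM (adjusted p = 0.00427).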
